A study of Mus musculus with 6 samples.

Results

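Box C/D small nucleolar RNAs (snoRNAs) were followed in RNA-seq of sorted mouse spleen CD4 T cells. The members were all genes of the count table whose Ensembl identifier carries, in the GENCODE M21 annotation of GRCm38, a symbol starting with Snord and the biotype snoRNA or scaRNA. This rule uses no measured value. It found 98 members of 47729 genes, all of biotype snoRNA, and 31 of them had 20 or more counts summed over the 6 libraries. The members just inside that minimum were Snord65 with 21 counts, Snord70 with 22 and Snord98 with 26, and those just outside were Snord11 and Snord7 with 18 each and Snord35b with 17.

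The study sorted 3 groups, each with 2 libraries of total RNA. WT libraries came from wild type mice and held mature naive cells gated CD3+CD4+CD25-CD45RBhi; their treatment is labelled Dox (doxycycline), with no duration. ON and OFF libraries came from RBPJind mice and held immature naive cells, CD45RBint in the same gate. ON mice drank doxycycline water for 4 weeks and are labelled Notch responsive. OFF mice received it for 3 weeks and then none for 1 week, and are labelled Notch unresponsive during maturation. RBPJ is the DNA-binding factor through which Notch receptors act on transcription; the sources used here do not give the promoter of the inducible allele, the age of the mice or any pooling. OFF against ON holds genotype and gate constant, whereas genotype, gate and maturity differ together in either comparison with WT. The labels do not state whether the 2 libraries of a group stem from different animals; the p-values therefore reflect only how far these samples spread, which may be technical.

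Box C/D snoRNAs are short stable RNAs of the nucleolus. Each folds into a particle with fibrillarin (Fbl), Nop56, Nop58 and Snu13, and a stretch just upstream of the D box pairs with a target RNA, where fibrillarin adds a methyl group to the ribose. Most guide methylation of ribosomal RNA, a few guide methylation of the spliceosomal U6 RNA, and a few, such as U8 (Snord118), U14 (Snord14) and U22 (Snord22), are needed for cleavage of the ribosomal precursor. In mammals most are released from introns of host genes after splicing, often genes for ribosomal or nucleolar proteins, while a few have a promoter of their own.

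The RNAs on which the results turn are shown 5′ to 3′, written as DNA from the GENCODE M21 transcripts of GRCm38, with the box C and box D motifs in capitals. Snord17, Snord15a, Snord118 and Snord16a had the most counts of all members.
Snord17: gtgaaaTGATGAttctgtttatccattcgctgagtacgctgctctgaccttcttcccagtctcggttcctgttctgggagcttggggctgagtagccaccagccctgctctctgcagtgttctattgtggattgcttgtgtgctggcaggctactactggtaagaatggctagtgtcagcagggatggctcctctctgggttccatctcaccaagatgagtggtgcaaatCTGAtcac
Snord15a: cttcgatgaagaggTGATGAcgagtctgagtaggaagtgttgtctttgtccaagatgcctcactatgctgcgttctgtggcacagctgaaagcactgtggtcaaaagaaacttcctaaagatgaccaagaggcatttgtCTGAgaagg
Snord118: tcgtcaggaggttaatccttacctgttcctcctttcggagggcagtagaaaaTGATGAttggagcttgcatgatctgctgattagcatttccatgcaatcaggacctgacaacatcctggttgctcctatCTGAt
Snord16a: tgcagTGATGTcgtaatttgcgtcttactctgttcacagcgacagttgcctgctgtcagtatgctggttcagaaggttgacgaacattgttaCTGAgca
Snord17 (ENSMUSG00000077714) lies at chr2:144265979-144266216 on the minus strand, in an intron of Snx5, a sorting nexin of endosomes. Snord15a (ENSMUSG00000065822) lies at chr7:99482785-99482932, minus strand, in an intron of the ribosomal protein gene Rps3. Snord118 (ENSMUSG00000064899) lies at chr11:69073427-69073561, plus strand, inside no annotated host gene. Snord16a (ENSMUSG00000094411) lies at chr9:64175423-64175521, plus strand, within the ribosomal protein gene Rpl4, and an annotated exon of Rpl4 covers all of its 99 bases. The motif TGATGN in the first 60 bases together with CTGA in the last 25, searched on the RNA strand only, occurred in 28 of the 31 reported members (90.3%) and in 91 of all 98 (92.9%). It occurred in 0 of 42 Snora genes, the H/ACA class of snoRNA, which lacks these boxes by definition.

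A search of all 98 members for at least 10 bases complementary to U6 RNA (Rnu6) that end no more than 1 base before a CTGA found 3, which are the members listed by role as U6 guides. Here the capitals mark the complementary stretch.
Snord8: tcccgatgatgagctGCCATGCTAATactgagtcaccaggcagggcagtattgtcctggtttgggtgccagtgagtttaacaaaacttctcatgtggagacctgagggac
Snord7: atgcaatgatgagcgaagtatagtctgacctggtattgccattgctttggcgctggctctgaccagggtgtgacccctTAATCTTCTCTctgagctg
Snord67: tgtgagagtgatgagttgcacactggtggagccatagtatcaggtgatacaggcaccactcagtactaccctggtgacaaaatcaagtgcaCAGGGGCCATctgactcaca
Snord8 matched U6 positions 50 to 60 over 11 bases, Snord7 matched positions 43 to 53 over 11 bases, and Snord67 matched positions 56 to 65 over 10 bases. Positions count from 1 at the 5′ end of Rnu6. For Snord7 and Snord67 the CTGA used is box D; for Snord8 it is an internal CTGA that starts at base 28, upstream of the box D at base 102. The fifth base upstream of that CTGA, the place of methylation in the textbook rule, falls at U6 positions 53, 47 and 60 for Snord8, Snord7 and Snord67. A match of letters is a description and not a measured site. The 3 guides differed widely in counts, with 547 for Snord8, 18 for Snord7 and 0 for Snord67, whose row overlaps an annotated exon of Ckap5 over 93 of its bases.

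Between 17025551 and 19319183 counts were assigned to genes per library. Levels are CPM, counts per 1000000 of a library's TMM-scaled size, and they are compared between genes only as counts per 100 bases. A count of 0 in a library allows up to 3 counts, or 0.149 to 0.180 CPM, which covers counting error only. Rbpj checked the ON and OFF labels against each other. It was at 36.1 and 35.3 CPM in WT, 98.2 and 79.6 in ON, with 29.8 and 31.7 in OFF. From ON to OFF it fell by 1.53 ± 0.14 (SE) on the log2 scale (edgeR adjusted p = 0.00195). OFF against WT gave -0.22 ± 0.14 (adjusted p = 0.422) and was not called, so these levels do not show a loss of Rbpj below WT. The 6 T cell markers summed to between 3720 and 4628 CPM in every library, and Cd4 and Cd3e were high throughout. The 4 B cell markers summed to 3.02 and 3.35 CPM in WT, 9.71 and 11.8 in ON, with 14.4 and 24.5 in OFF; the 4 myeloid markers summed to 13.3 and 13.996 in WT, 36.3 and 38.4 in ON, with 30.7 and 44.7 in OFF. No member of these lists was at 0 in all libraries, and their part in the results was not tested. Il2ra, which encodes the CD25 that the gate excludes, averaged 4.42 CPM in WT against 26.3 in ON and 27.1 in OFF. Foxp3, the regulatory T cell factor, had 2.45 and 2.67 CPM in WT, 38.0 and 30.8 in ON, with 36.6 and 78.7 in OFF (adjusted p against WT 0.00232 for ON and 0.00168 for OFF), and OFF 2 was well above the rest. Cd8a had 0.419 and 1.28 CPM in WT, 5.72 and 5.85 in ON, with 3.06 and 4.09 in OFF (adjusted p against WT 0.00322 and 0.0286). The part of these 3 markers in the results was not tested. Unaligned reads made up 21.8% and 18.8% of the WT libraries, 14.8% and 9.34% of the ON libraries, and 22.1% and 24.3% of the OFF libraries, so the ON libraries were lowest in this too; the part of this in the results was not tested. In these bulk samples, fewer cells of a type and less RNA per cell cannot be told apart.

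Counts were concentrated in few members. The 98 together had 86743 counts, of which Snord17 gave 56399 (65.0%) and Snord15a 23002 (26.5%). Per 100 bases of RNA, Snord17 had 23697 counts, Snord15a 15542, Snord118 2410 and Snord16a 835, which is the same order as by total count. The other 29 reported members together held 8.25% of the counts. The first 10 members are those of highest average CPM, which does not correct for their length. Beyond the first 10, the 21 remaining reported members had 21 to 109 counts and average levels of 0.192 to 1.03 CPM. Of the rest, 17 members had 1 to 19 counts and 50 had none.

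**Figure D1:**
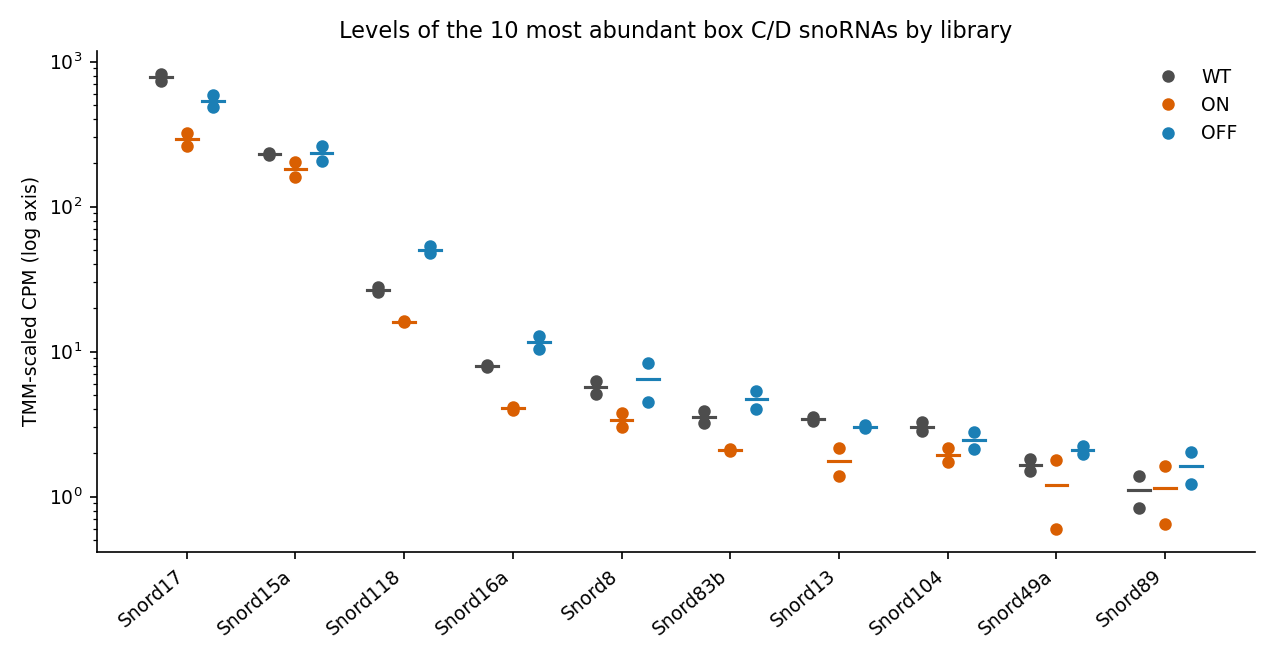
TMM-scaled CPM (log axis) of the 10 box C/D snoRNAs with the highest average CPM, with 1 point for each of the 2 WT, 2 ON and 2 OFF libraries. Snord17 runs from 263 to 826 CPM and Snord15a from 159 to 261 CPM, and the ON points are the lowest for Snord17, Snord15a, Snord118 and Snord16a.

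Members inside annotated exons of other genes mostly had no count. Of 43 members that overlap an annotated exon of another gene, 34 had no count, 5 had 1 to 19 and 4 had 20 or more, namely Snord16a, Snord111, Snord19 and Snord69. Among the 39 that an exon covers whole, 33 had none. Of the 55 with no such overlap, 17 were copies of Snord116, the imprinted cluster of the Prader-Willi region, which share 4 distinct sequences of 94 bases; 16 of these had no count and 1 had a single count. The other 38 members without overlap all had at least 1 count, and 27 of them had 20 or more. The members at 0 include U14 (Snord14a, Snord14c, Snord14d and Snord14e), U22 (Snord22) and all 4 members within Gas5. These 4 overlap annotated exons of Gas5. They are Snord47, Snord78 and Snord80, the last under both of its identifiers. The sources used here do not give how the authors' counting treated reads shared by overlapping genes, its strand setting or its annotation release, and ambiguous reads were 0.987% to 1.33% of a library. A row at 0 therefore says that no read was assigned to it, and is not a measure of the RNA in the cells. Snord16a is uncertain for the same reason, because its reads and those of the Rpl4 exon cannot be told apart in a count table.

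**Figure D2:**
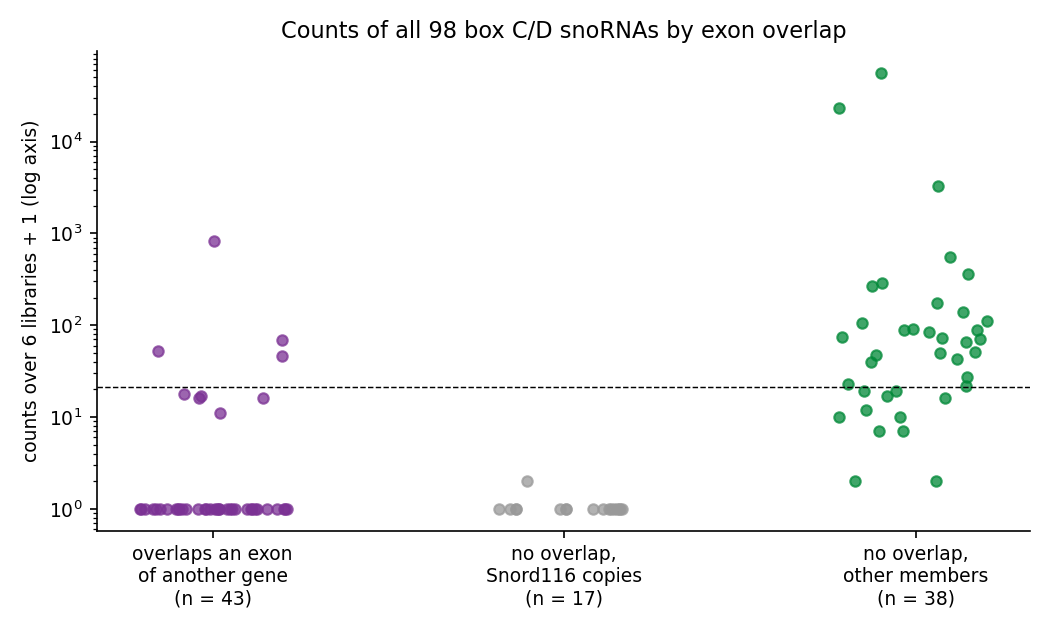
Total counts over the 6 libraries plus 1 (log axis) for each of the 98 members, split into those that overlap another gene's annotated exon, Snord116 copies and all other members; the dashed line marks the minimum of 20 counts. Of the members with exon overlap 34 of 43 sit at 0, against 0 of the 38 other members outside the Snord116 cluster.

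Longer members had more counts. Among the 38 without overlap and outside the Snord116 cluster, the 13 of 90 bases or more had a median total of 138 counts, and 8 of them had 100 or more. The 25 shorter members had a median of 39 counts, and 3 had 100 or more. No size selection of the libraries is described in the labels.

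In OFF against ON, which asks what differs when doxycycline is withdrawn for the last week, 3 of 26 tested members rose and 0 fell. These were U8 (Snord118), Snord16a and Snord17. Among all 15780 genes tested, 0.602% were called higher and 0.425% lower. A call is an adjusted p under 0.05 in edgeR's quasi-likelihood test with Benjamini-Hochberg adjustment over all genes tested. DESeq2 and limma-voom also called 3 members higher and 0 lower. Over all 15780 genes DESeq2 called 245 higher and 261 lower, and limma-voom 73 and 59. At an unadjusted p under 0.05, 9 members were higher and 0 lower, against 9.11% and 9.96% of all genes. The median log2 fold change of the 26 was 0.67, against 0.00 over all genes, and 21 of the 26 were above 0. The 26 were those that passed the filter on low counts, so this is a description of them and not of all 98. The ON libraries are shared with the comparison against WT, and the 2 sets of fold changes are not independent.

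Snord118, or U8, is needed for maturation of the 5.8S and 28S ribosomal RNAs and is transcribed from its own promoter. It stood at 47.4 and 53.4 CPM in OFF, 15.9 and 16.2 in ON, and 27.8 and 25.7 in WT. The 3 groups did not overlap, with OFF highest and ON lowest. It rose 3.14-fold from ON to OFF (log2 fold change 1.65 ± 0.14 SE, adjusted p = 0.00104), was lower in ON than in WT (-0.74 ± 0.14, adjusted p = 0.00897) and higher in OFF than in WT (0.92 ± 0.13, adjusted p = 0.00460). The call from ON to OFF held in all 16 refits with another scaling, filter, tool, block or set of libraries, with adjusted p up to 0.00757. The calls against WT were lost without WT 1 and without WT 2, where calls in ON against WT also fell over the whole table. Over the refits the log2 fold change against WT ranged from -0.81 to -0.67 for ON and from 0.82 to 1.03 for OFF.

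Snord17, a guide for 28S ribosomal RNA, had more counts than any other member in every library. Its level was 826 and 736 CPM in WT, 263 and 323 in ON, with 589.8 and 485 in OFF. All 3 groups were separate, with ON lowest and WT highest. Relative to WT it fell 2.67-fold in ON (log2 fold change -1.42 ± 0.15, adjusted p = 6.06e-04), a call that held in all 16 refits. It rose 1.84-fold from ON to OFF (0.88 ± 0.15, adjusted p = 0.0349), but this call was lost without WT 1 (adjusted p = 0.0659), WT 2 (0.0801) or OFF 1 (0.109), with only the 4 libraries compared (0.0931) and with the replicate number as a block (0.0992). OFF against WT gave -0.54 ± 0.15 (adjusted p = 0.0617), which was not called.

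Snord16a, a guide for 18S ribosomal RNA, had 12.9 and 10.4 CPM in OFF, 4.14 and 3.96 in ON, and 8.07 and 7.85 in WT. The groups were again separate, in the order OFF, WT, ON. It rose from ON to OFF by 1.52 ± 0.22 on the log2 scale (adjusted p = 0.0138) and was lower in ON than in WT (-0.97 ± 0.22, adjusted p = 0.0206). The first call was lost without OFF 1 (adjusted p = 0.0577) and with only the 4 libraries compared (0.0544), and the second without WT 1 (0.140), WT 2 (0.141) or ON 2 (0.0561). Rpl4, whose exon covers it, had 1595 and 1563 CPM in ON and 1345 and 1381 in OFF, which is a difference in the opposite direction of -0.21 ± 0.12 (adjusted p = 0.349).

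**Figure D3:**
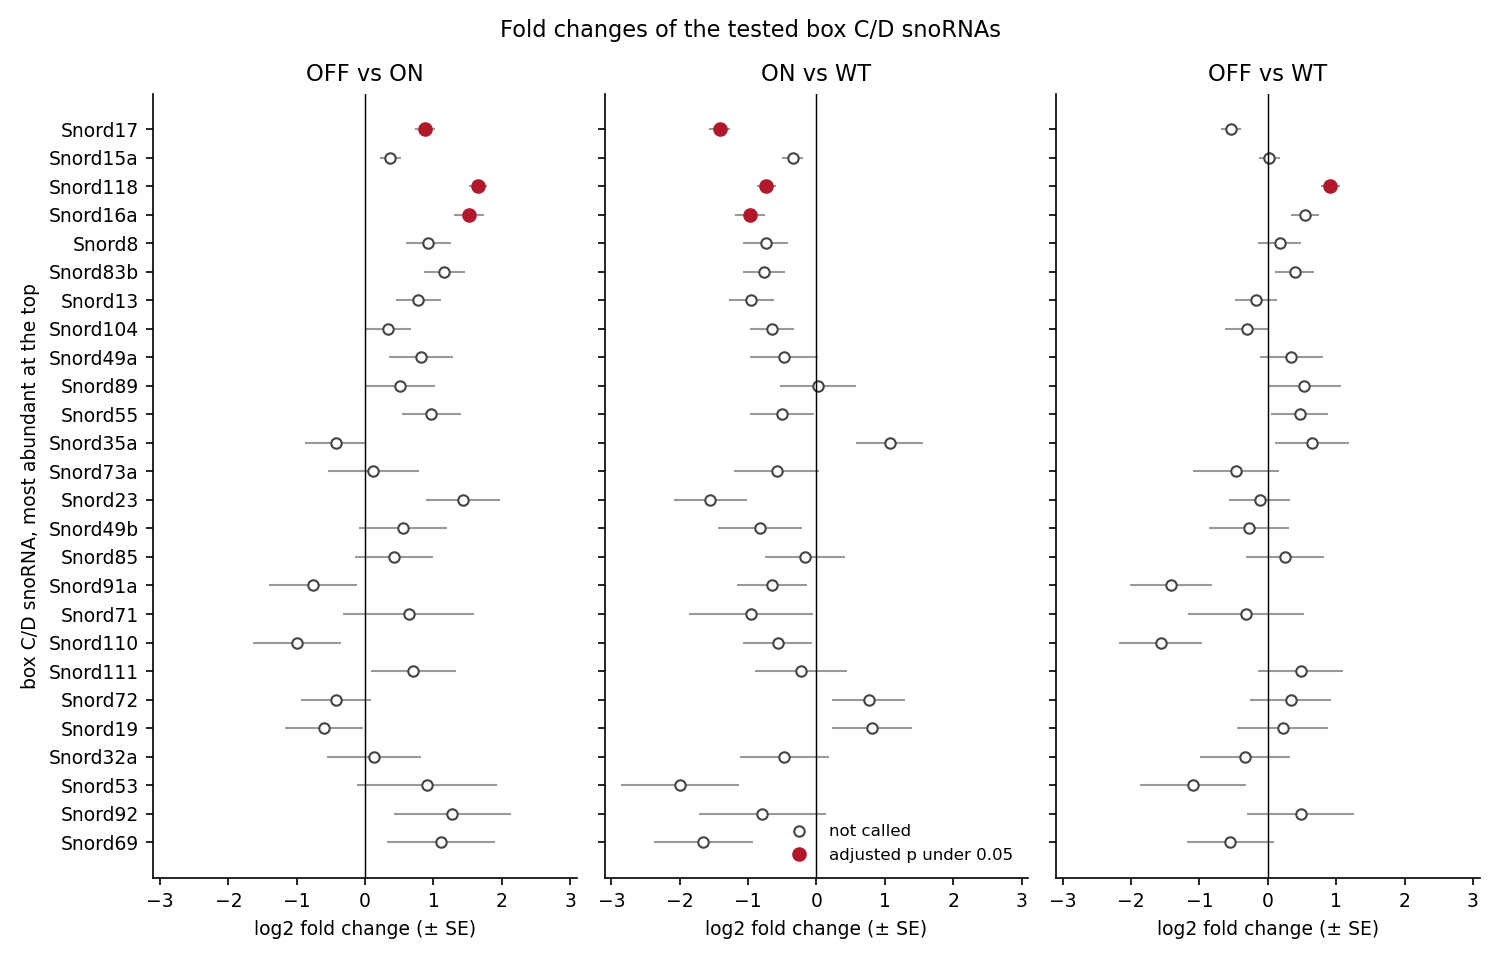
Log2 fold change with SE of the 26 tested box C/D snoRNAs for each comparison, from the highest total count at the top. Filled points passed an adjusted p of 0.05. Snord118, Snord16a and Snord17 pass in OFF against ON and in ON against WT, and the bars widen towards the low-count members at the bottom.

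The other abundant members did not pass the test. Snord15a, a 28S guide in an intron of Rps3, had 228 and 233 CPM in WT, 159 and 204 in ON, with 261 and 207 in OFF. Both ON libraries were the lowest, though ON 2 and OFF 2 were close. The difference between OFF and ON was 0.37 ± 0.15 (adjusted p = 0.239) and that between ON and WT was -0.35 ± 0.15 (adjusted p = 0.165). Snord8, the U6 guide in an intron of the chromatin remodeller gene Chd8, had 6.28 and 5.12 CPM in WT, 3.02 and 3.77 in ON, with 8.32 and 4.51 in OFF. Its 2 OFF libraries spanned the WT levels, and the ON to OFF difference of 0.92 ± 0.33 had an adjusted p of 0.174. Snord83b, an orphan in an intron of Rpl3 with no known target, had 3.23 and 3.90 CPM in WT, 2.04 and 2.13 in ON, with 5.31 and 4.03 in OFF, and OFF against ON gave 1.16 ± 0.30 (adjusted p = 0.0937).

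Snord13 (U13), which has its own gene and guides acetylation of 18S ribosomal RNA, had 3.53 and 3.31 CPM in WT, 2.15 and 1.39 in ON, with 3.12 and 2.95 in OFF. Its ON libraries were the lowest, with -0.95 ± 0.33 against WT (adjusted p = 0.0808) and 0.78 ± 0.33 for OFF against ON (adjusted p = 0.244). Snord104, a 28S guide without an annotated host, had 2.81 and 3.26 CPM in WT, 2.15 and 1.73 in ON, with 2.14 and 2.76 in OFF, where OFF and ON overlapped. Snord49a and Snord89 differed widely between the ON libraries, at 1.79 and 0.595 CPM for Snord49a and 1.64 and 0.644 for Snord89. The noncoding host 2410006H16Rik carries 3 reported members, Snord49a, Snord49b and Snord65. For Snord49b the ON libraries had 0.920 and 0.248 CPM, and for Snord65 they had 0.511 and 0.0496, so ON 1 was above ON 2 for all 3.

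Against WT, 3 of the 26 members fell in ON and 0 rose; 5.16% of all genes were called lower and 9.68% higher. They were the same 3 as above, Snord17, Snord118 and Snord16a. At an unadjusted p under 0.05, 8 members were lower and 0 higher, against 13.4% and 17.1% of all genes. DESeq2 and limma-voom each also called 3 lower and 0 higher. Over all 15780 genes DESeq2 called 797 lower and 1544 higher, and limma-voom 725 and 1263. The median over the 26 was -0.65, against -0.02 over all genes, and 22 were below 0. The filter can keep a low-count member through its highest group alone, which limits what these values say. Snord53 had 17 and 11 counts in WT against 8 and 0 in ON, and Snord19 had 6 and 6 against 12 and 13. Exceptions in direction were Snord35a in Rpl13a, Snord19 in Gnl3, Snord72 in Rpl37 and Snord89, which were named after their values were seen and none of which was called. Among these, Snord35a, a 28S guide, had 0.538 and 0.698 CPM in WT, 1.58 and 1.04 in ON, with 1.16 and 0.781 in OFF, with a difference of 1.07 ± 0.49 between ON and WT (adjusted p = 0.174). In OFF against WT, Snord118 alone of the 26 was called higher and 0 were called lower, against 4.7% and 2.14% of all genes (6.83% in either direction). At an unadjusted p under 0.05, 2 members were higher and 3 lower, against 12.4% and 9.7% of all genes. DESeq2 called 1 lower there, Snord17, and limma-voom called 0 lower, against 296 and 153 of all 15780 genes called lower by these tools. The median of the 26 in that comparison was 0.10, against 0.01 over all genes.

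The spread of the groups gives the same levels without a model. From ON to OFF the libraries of 11 members did not overlap and were higher in OFF, and those of 3 were lower, against 23.4% and 23.3% of all genes. From WT to ON the libraries of 14 members were lower and those of 3 higher, against 30% and 29.8% of all genes. The lowest group mean was in ON for 20 of the 26, against 35.9% of all genes. For some of the 20 the ON libraries differed widely, such as Snord73a with 1.18 CPM in ON 1 and 0.248 in ON 2. Both ON libraries lay below all 4 others for 9 of 26, against 14.7% of all genes. These 9 were Snord17, Snord15a, Snord118, Snord16a, Snord8, Snord83b, Snord13, Snord55 and Snord23. The filter can keep a low-count member through WT or OFF while it is low in ON. Snord23 had 23 and 15 counts in WT, 8 and 7 in ON, with 18 and 17 in OFF. These tallies are therefore only a description of the tested members. All of the 10 members with the highest average CPM had a log2 fold change above 0 from ON to OFF (0.33 to 1.65), while the other 16 ranged from -0.999 to 1.43 with a median SE of 0.64. For these 16 the smallest adjusted p from ON to OFF was 0.196.

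Summed over all 98 members, the share of gene counts was 0.110% and 0.105% in WT, 0.0482% and 0.0591% in ON, with 0.0911% and 0.0762% in OFF. The groups did not overlap, and the WT mean was 1.999 times and the OFF mean 1.56 times the ON mean. Most of this was Snord17. Without it the mean shares were 0.0298% ± 0.000973 (SD, n = 2) in WT, 0.0233% ± 0.00309 in ON and 0.0319% ± 0.00371 in OFF, with ratios to ON of 1.28 and 1.37. An exact two-sided permutation test of 2 against 2 libraries cannot go below p = 0.333.

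**Figure D4:**
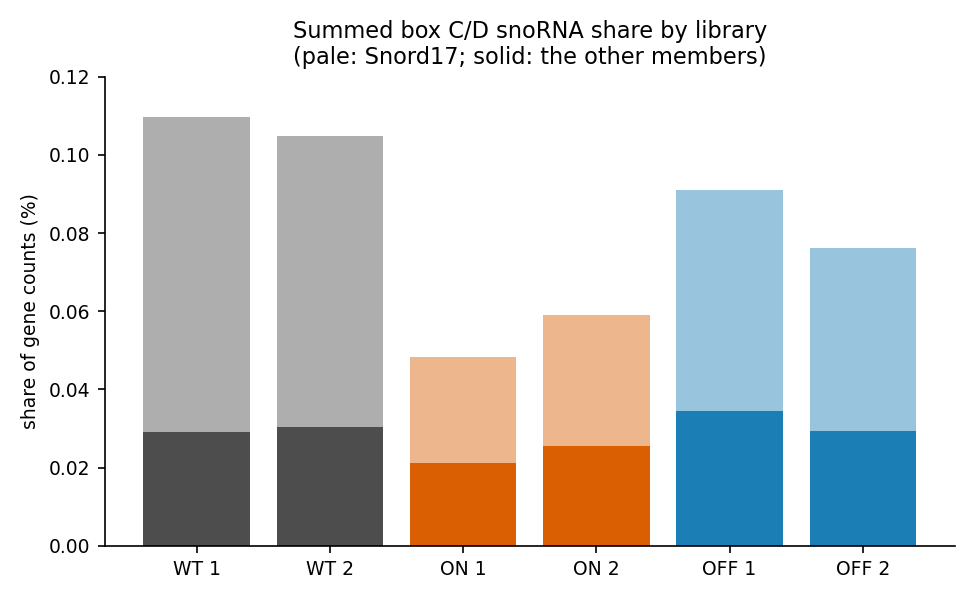
Share of all gene counts (%, axis from 0) held by the 98 box C/D snoRNAs in each library, with Snord17 as the pale part of each bar and all other members as the solid part. Both ON bars (0.0482% and 0.0591%) are lower than the WT and OFF bars, and most of the gap lies in the pale part.

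Host genes were set beside the members that lie within them. A host transcript and its intronic snoRNA come from the same primary RNA. Snx5, the host of Snord17, had 118.2 and 106 CPM in WT, 125 and 117 in ON, with 111 and 126 in OFF. The groups overlapped, and the difference of OFF from ON was -0.03 ± 0.12 (adjusted p = 0.927) beside 0.88 ± 0.15 for Snord17. Rps3, the host of Snord15a, differed by 0.11 ± 0.12 between OFF and ON (adjusted p = 0.632), and Chd8, the host of Snord8, by 0.08 ± 0.12 (adjusted p = 0.751). Of 23 tested pairs with 19 hosts, 19 hold an intronic member and 4 a member that overlaps a host exon (Snord16a, Snord111, Snord19 and Snord69). Over all 23, the median change from ON to OFF was 0.63 for the members and -0.21 for the hosts, with the same sign in 10 pairs. From WT to ON the medians were -0.58 and 0.16, with the same sign in 9 pairs. For the 19 intronic pairs alone the medians were 0.56 and -0.35 from ON to OFF, with the same sign in 9, and -0.58 and 0.22 from WT to ON, with the same sign in 8. Members in 1 host share that host, so the pairs are not independent.

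None of the 19 hosts was called from ON to OFF by edgeR (0 higher and 0 lower, against 1.03% of all genes in either direction), although 2 were higher and 6 lower at an unadjusted p under 0.05, against 9.11% and 9.96% of all genes. DESeq2 called 3 hosts lower and limma-voom 0, against 261 and 59 of all 15780 genes called lower by these tools. From WT to ON 3 hosts rose, against 9.68% of all genes. These were Nop53, a ribosome assembly factor (0.57, adjusted p = 0.0107), 2410006H16Rik (0.61, adjusted p = 0.0228) and the ribosomal protein gene Rpl37 (0.70, adjusted p = 0.0305). None of their tested members was called in that comparison; Snord23, in Nop53, had a log2 fold change of -1.55 ± 0.53 (adjusted p = 0.0813).

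**Figure D5:**
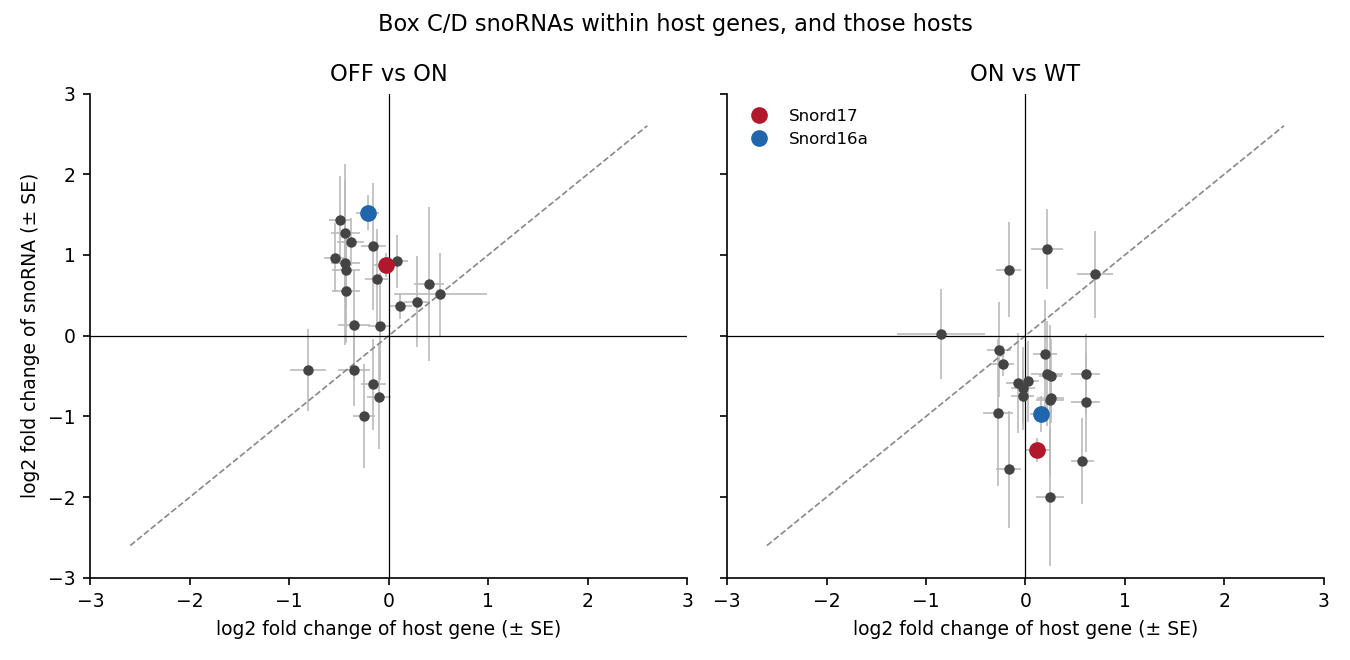
Log2 fold change of each of 23 members that lie within a host gene, 19 of them intronic (vertical, ± SE), against that of its host gene (horizontal, ± SE) for OFF against ON and ON against WT; the dashed line marks equal change. Snord17 and Snord16a lie well off the line in both panels, above it for OFF against ON and below it for ON against WT, with hosts near 0.

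Genes for the proteins that build and process box C/D particles were taken from a list of 29, of which 28 were tested. From ON to OFF edgeR called 0 of the 28, against 1.03% of all genes in either direction. DESeq2 called 2 lower and limma-voom 0, against 261 and 59 of all 15780 genes called lower by these tools. At an unadjusted p under 0.05, 9 were lower and 0 higher, against 9.96% and 9.11% of all genes. Their median was -0.25 and 24 of the 28 were below 0, which is opposite in sign to the snoRNA median of 0.67. Fbl, the methyltransferase, had 69.4 and 64.4 CPM in WT, 57.1 and 68.7 in ON, with 66.6 and 67.3 in OFF, and these levels overlapped. The core protein Nop58 differed by -0.45 ± 0.13 between OFF and ON (adjusted p = 0.121), and Rrp9, a protein of the U3 particle, by -0.64 ± 0.16 (adjusted p = 0.0937). From WT to ON 2 of the 28 were called higher, against 9.68% of all genes. These were Ncl, nucleolin (0.72 ± 0.17, adjusted p = 0.0214), and Exosc3, a subunit of the exosome that trims RNA ends (0.64 ± 0.15, adjusted p = 0.0198). In that comparison 7 were higher and 1 lower at an unadjusted p under 0.05, against 17.1% and 13.4% of all genes. The median there was 0.14, and 21 of the 28 were above 0. Against WT, edgeR, DESeq2 and limma-voom called 0 of the 28 in OFF, where edgeR called 6.83% of all genes. At an unadjusted p under 0.05, 1 was higher and 3 lower, against 12.4% and 9.7% of all genes.

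The H/ACA snoRNAs, which guide pseudouridylation, were read in the same fit. Of 16 tested Snora genes 7 were called higher from ON to OFF and 10 lower from WT to ON, against 0.602% and 5.16% of all genes, with medians of 1.31 and -1.08. The corresponding box C/D values were 3 of 26 in each comparison, with medians of 0.67 and -0.65; the difference between the classes was not tested. Box C/D RNAs that carry other symbols fell outside the rule: Rnu73b had 66 counts and the 10 U3 rows had 1 count in all.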

How the data were processed

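Total RNA of 6 libraries was sequenced on an Illumina NovaSeq and aligned to GRCm38, per the labels' protocols; edgeR and R 3.6.2 are named in the submitters' processing notes. The authors deposited raw counts per gene, whole numbers with no normalization. Aligner, counter, strand setting and annotation release: not given in the sources used here. All 5 summary rows stayed out of library sizes. Identifiers were looked up in GENCODE M21 (47310 of 47729 matched).

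Genes were kept by filterByExpr (minimum count 10, minimum total 15), which left 15780 genes and 26 members, scaled by TMM and tested with edgeR 4.0.16 (quasi-likelihood, robust, all 6 libraries in 1 fit, 3 residual degrees of freedom) with Benjamini-Hochberg adjustment; R was 4.3.3, DESeq2 1.42.0 and limma 3.58.1. The code was also run on simulated counts with the same dispersion for all genes and groups. This does not cover the unequal spread of the real replicates. A host is a gene on the same strand whose body contains the member. Replicates differed by more than sampling noise (chi-square per degree of freedom 9.50 in WT, 65.9 in ON and 17.8 in OFF). Named members are the 10 of highest mean CPM, called members with separate groups, U6 and processing snoRNAs with 20 counts, and those in hosts with 3 reported members; named others are their hosts, machinery genes of small p and markers. Members and lists were chosen with earlier results of these data known.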

Additional observations from a re-analysis of the deposited data

How the results depend on the processing

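Alternatives were other scalings, filters and tools, only the 4 libraries compared, the replicate number as a block and leaving out each library; fits with 1 library left in a group assume that it varies like the others. Members called in OFF against ON numbered 3, and 1 with only the 4 libraries compared or at an adjusted p under 0.01; leaving out 1 library gave 1 to 3. In ON against WT 3 were called, and 1 to 4 with a library left out. In OFF against WT 1 was called, but 2 with RLE scaling, upper quartile scaling, DESeq2 or only the 4 libraries compared, each adding Snord17 lower, and 0 to 2 with a library left out (0 without WT 1 or without WT 2). Replicate differences correlated at 0.08 for WT and ON, -0.21 for WT and OFF and -0.20 for ON and OFF over 15780 genes. Each group gives only 1 such difference, so these values cannot decide whether the numbers pair the libraries. With the replicate block 2 members were called in OFF against ON, 3 in ON against WT and 1 in OFF against WT. With OFF numbers crossed, an alternative added after seeing the data, 4, 5 and 2 were called. Over all 15780 genes, OFF against ON had 162 calls in the main fit, 60 with the block and 1210 with crossed numbers. For ON against WT these were 2342, 1441 and 3755. With crossed numbers calls thus rose over the whole table and not only among members. The summed share of members was 0.161% in WT, 0.0724% in ON and 0.125% in OFF per protein-coding count, and 0.0298%, 0.0233% and 0.0319% without Snord17. Of 525 alternative values over 11 members, 482 kept direction and call, 14 lost a call, 10 gained one and 19 changed sign. None of those 19 was called. With a library left out, OFF against ON ranged from -0.024 to 1.33 for Snord89 and from -0.12 to 1.76 for Snord49b, and ON against WT from -1.44 to 0.14 for Snord49a; the sign changed without ON 2. ON against WT for Snord89 was -0.054 with upper quartile scaling, -0.046 with TMM on protein-coding genes, -0.0031 with a floor of 1 on the mean CPM, -0.089 with limma-voom, -0.0021 with the crossed block, and from -0.77 (without ON 1) to 0.57 (without ON 2) with a library left out, including -0.29 without WT 1. OFF against WT for Snord15a was -0.00065 with RLE scaling, -0.054 with upper quartile scaling, -0.028 with TMM on protein-coding genes, -0.035 with the floor on CPM, -0.00068 with DESeq2, -0.024 with only the 4 libraries compared and -0.13 to 0.17 with a library left out. There it ranged from -0.31 to 0.54 for Snord8 (negative without OFF 1) and from -0.59 to 0.19 for Snord49b (positive without WT 1). The cause of these changes was not tested. The median of the tested members ranged from 0.45 to 0.85 in OFF against ON, where it was 0.45 without ON 2 and 0.79 without ON 1. It ranged from -0.78 to -0.51 in ON against WT and from -0.11 to 0.37 in OFF against WT.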
